A study of Mus musculus with 12 samples.

Results

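The D-box factors are the transcription factors Dbp, Tef, Hlf and Nfil3, which bind the same short DNA element, the D-box, and act on it in opposite directions. Every probe set annotated to 1 of these genes and to no other was taken, which gave 4 of the 18193 genes and 8 of the 34945 probe sets with a single gene symbol: 2 for Dbp, 3 for Tef, 2 for Hlf and 1 for Nfil3. The genes were chosen by name and not by a measured value, but with earlier results of these data known. From the same arrays the authors of the data had ranked Dbp near the top of the genes that vary over the day. Messenger RNA was measured in prefrontal cortex from mice of the C57BL/6J strain, obtained at 10 weeks of age and entrained to a cycle of 12 h of light and 12 h of darkness, on Affymetrix Mouse430_v2 arrays. Zeitgeber time (ZT) counts hours from lights on, so ZT3 and ZT9 lie in the light phase, when mice mostly sleep, and ZT15 and ZT21 in the dark phase, when they are mostly awake. At each of the 4 times 3 mice were killed, each mouse was hybridised to its own array, and all 12 mice were wild type and untreated. Because the light cycle continued and each mouse gave 1 time point, the clock, light, feeding and sleep or waking cannot be told apart as sources of a difference between times.

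Dbp, Tef and Hlf are the PAR bZIP proteins, basic leucine zipper activators with a domain rich in proline and acidic residues, and Nfil3 (also called E4BP4) is a related basic leucine zipper repressor that competes for the D-box. In the circadian clock the CLOCK and BMAL1 dimer drives Dbp through E-boxes, whereas REV-ERB and ROR receptors act on Nfil3 through ROR elements, so that activator and repressor of the D-box are best known for running in opposite phases in the liver and the suprachiasmatic nucleus. In the brain the PAR bZIP proteins are known for control of pyridoxal kinase, which makes the active form of vitamin B6, and mice that lack all of them suffer seizures.

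The proximal promoters are shown because E-boxes, ROR elements and D-boxes are elements of DNA, and these windows are where they were searched for. Each window holds the 250 bases before a start annotated by RefSeq on GRCm38.p6, printed 5′ to 3′ on the strand of the gene. The 4 genes matched 5 starts, with 2 for Tef. Capitals mark every match, on either strand, to the E-box CACGTG, to the E-box variant that ends in another base, CACGTT, to the D-box spelled TTATGTAA or TTACGTAA, to the core of the ROR element, AGGTCA, and to the cyclic AMP response element TGACGTCA. The Nfil3 match to the ROR element core is on the other strand and so appears as its reverse complement. No match overlapped another.

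Dbp, chr7:45704997-45705246 (+): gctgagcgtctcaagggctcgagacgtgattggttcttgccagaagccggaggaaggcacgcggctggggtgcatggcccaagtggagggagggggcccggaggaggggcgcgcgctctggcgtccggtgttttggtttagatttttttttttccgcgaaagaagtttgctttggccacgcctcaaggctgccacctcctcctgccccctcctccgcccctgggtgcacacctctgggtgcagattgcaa
Tef, chr15:81802423-81802672 (+): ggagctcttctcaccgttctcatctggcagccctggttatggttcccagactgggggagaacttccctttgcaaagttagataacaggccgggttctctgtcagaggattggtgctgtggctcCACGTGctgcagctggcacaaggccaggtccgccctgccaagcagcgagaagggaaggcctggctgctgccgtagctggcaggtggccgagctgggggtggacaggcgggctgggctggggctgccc
Tef, chr15:81811164-81811413 (+): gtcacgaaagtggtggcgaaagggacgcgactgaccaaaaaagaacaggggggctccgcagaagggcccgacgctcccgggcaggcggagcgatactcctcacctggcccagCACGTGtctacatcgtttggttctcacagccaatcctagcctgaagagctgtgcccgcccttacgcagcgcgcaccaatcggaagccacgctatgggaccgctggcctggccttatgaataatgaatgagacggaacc
Hlf, chr11:90390918-90391167 (-): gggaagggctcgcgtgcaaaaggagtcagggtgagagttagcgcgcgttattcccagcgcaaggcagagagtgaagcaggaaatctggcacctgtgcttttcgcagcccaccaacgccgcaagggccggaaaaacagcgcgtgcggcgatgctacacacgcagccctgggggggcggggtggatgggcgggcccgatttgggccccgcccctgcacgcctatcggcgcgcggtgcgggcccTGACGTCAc
Nfil3, chr13:52981040-52981289 (-): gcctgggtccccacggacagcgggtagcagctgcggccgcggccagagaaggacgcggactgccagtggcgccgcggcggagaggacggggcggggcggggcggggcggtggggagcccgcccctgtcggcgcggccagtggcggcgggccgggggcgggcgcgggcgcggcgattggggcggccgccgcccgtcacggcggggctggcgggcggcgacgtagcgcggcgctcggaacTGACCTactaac

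Both Tef windows held an E-box, beginning 127 and 138 bases before their starts. The Hlf window held a cyclic AMP response element 9 bases before the start, and the Nfil3 window held a ROR element core 12 bases before it. The Dbp window held none of these letters, which says nothing about sites elsewhere in or around the gene. Among 32851 RefSeq windows of the same length, CACGTG was found in 6.02%, CACGTT in 3.85%, TTATGTAA in 0.819%, TTACGTAA in 0.113%, AGGTCA in 14.0% and TGACGTCA in 1.55%, so the commoner of these matches occur in many promoters. Dbp spans bases 45705100 to 45710203 of chromosome 7 and Nfil3 bases 52967209 to 52982878 of chromosome 13, so the Dbp window lies partly and the Nfil3 window wholly within the annotated span of the gene. Tef spans bases 81802673 to 81826863 of chromosome 15, with its second window also inside the gene, and Hlf spans bases 90336535 to 90390917 of chromosome 11.

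Before the time courses, the tissue label was checked against marker genes. Of 7 markers of cortical excitatory neurons, 6 had a probe set with a single symbol, all 6 passed the filter on low values, and their summed intensity lay between 10018 and 12059 on all arrays. Olfactory bulb markers summed to 52.7 to 69.9 and the striatal markers to 557 to 952, and the blood markers to 38.7 to 94.1. Of the bulb markers Cdhr1 passed the filter (log2 intensity up to 5.51) and Th did not (up to 2.09), and of the blood markers Alas2 passed (up to 6.44) and Hba-a1 did not (up to 2.90). The 6 choroid plexus markers, of which 2 passed the filter, summed to 824 to 2162 at ZT3, 1959 to 29786 at ZT9, 2413 to 18964 at ZT15 and 1664 to 5606 at ZT21. The arrays of ZT9 replicate 3 (29786) and ZT15 replicate 1 (18964) stood far above the rest, and each count was also taken without these 2, a setting chosen after the marker values were seen. The meningeal markers summed to 1235 on ZT9 replicate 1 and 1001 on ZT9 replicate 3, against 556 to 907 on the other arrays. The 5 endothelial markers, of which 4 passed the filter, summed to 1283 to 1841. Of these 4, Cldn5 passed the limma F-test over the times used below (adjusted p = 0.0572). Flt1, Slco1c1 and Tek did not (limma adjusted p = 0.627, 0.653 and 0.379). The part of meningeal and endothelial markers in the results was not tested. In bulk tissue, fewer cells of a type and less RNA per cell cannot be told apart.

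All 8 probe sets passed the filter, a mean log2 intensity of at least 5. Over the 4 time points, both Dbp probe sets differed (limma F-test, Benjamini-Hochberg adjusted p under 0.20) and none of the other 6 passed, against 2.01% of the 24075 probe sets tested. Under the stricter threshold of 0.05, which 0.12% of all tested probe sets passed, the count for the D-box factors was the same 2. An unadjusted limma F-test p under 0.05 was found for 5 of the 8, where 15.6% of all tested probe sets lay. They were both Dbp and all 3 Tef probe sets. The range, taken here as the highest minus the lowest mean of the 4 times, was largest for Dbp, intermediate for Tef and Nfil3 and smallest for Hlf, beside a median range of 0.28 log2 over all tested probe sets.

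**Figure D1:**
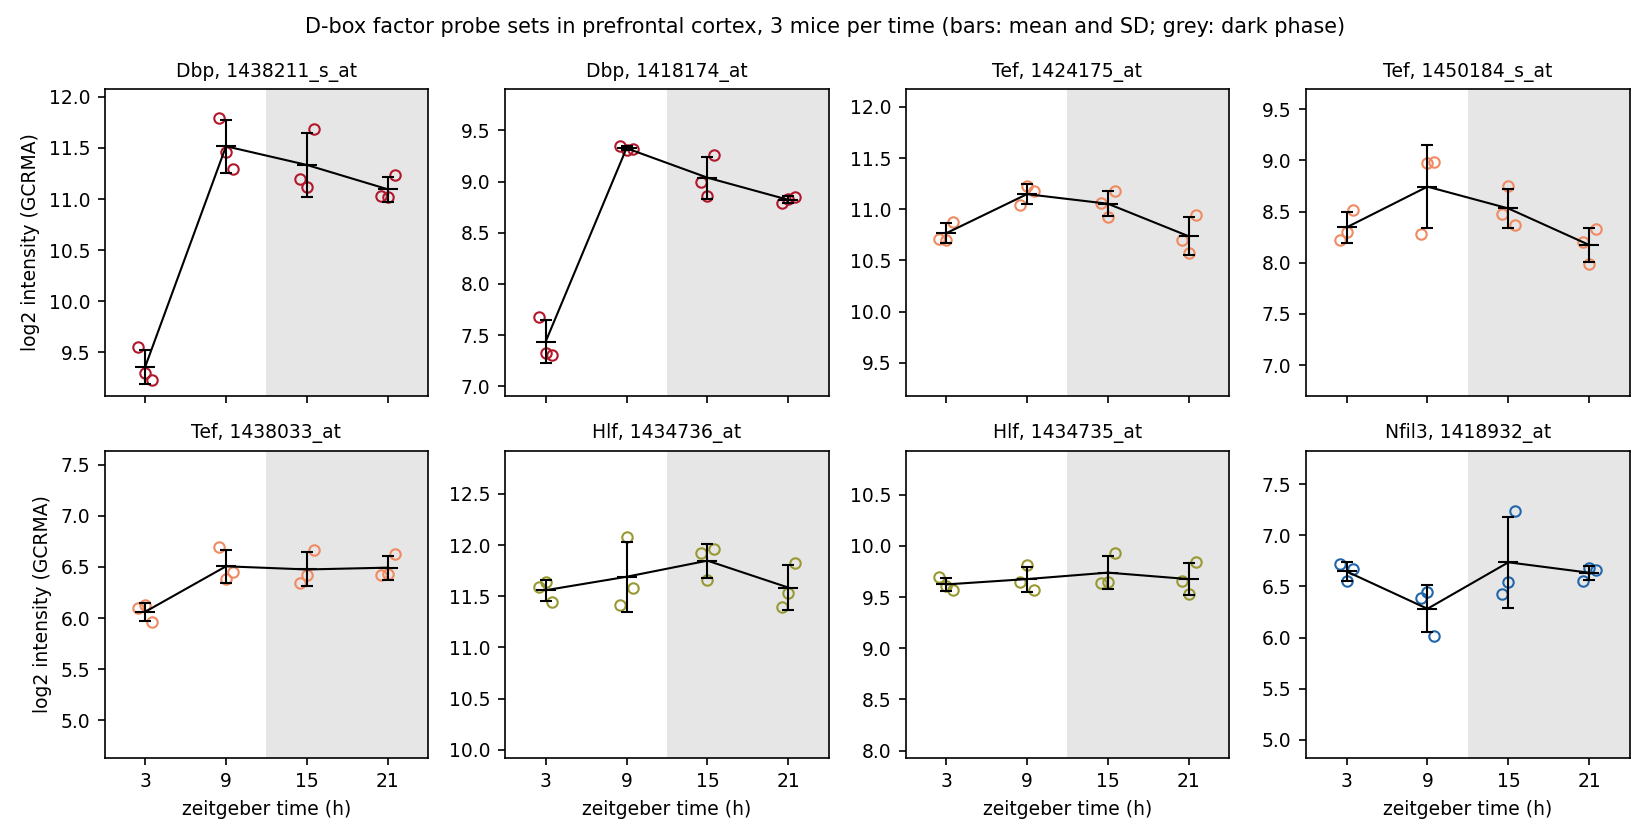
Log2 intensity (y axis) of the 8 probe sets at ZT3, ZT9, ZT15 and ZT21 (x axis, hours after lights on; dark phase shaded), with 1 circle per mouse and a line through the means of 3 mice with SD bars; all panels span the same number of log2 units. Both Dbp probe sets are lowest at ZT3, with means of 9.36 and 7.43, while the ranges of the other probe sets are between 0.12 and 0.57.

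Dbp, the D-box activator with the strongest known rhythm of the family, was low in early light and high at every other time. On its brighter probe set, 1438211_s_at, the log2 intensities were 9.55, 9.30 and 9.23 at ZT3, 11.80, 11.46 and 11.29 at ZT9, 11.20, 11.11 and 11.69 at ZT15, and 11.03, 11.02 and 11.24 at ZT21. All 3 mice of ZT3 lay below the other 9. The mice of ZT15 overlapped with those of both ZT9 and ZT21, and all of ZT9 lay above all of ZT21. The second probe set, 1418174_at, read 7.67, 7.33 and 7.30 at ZT3, 9.35, 9.31 and 9.32 at ZT9, 8.99, 8.86 and 9.26 at ZT15, and 8.79, 8.83 and 8.85 at ZT21. Here too ZT3 lay below all other mice, ZT9 lay above all others and ZT15 above ZT21. A complete separation of ZT3 below the other 9 arrays was seen in 3.24% of all tested probe sets and of ZT9 above the other 9 in 0.951%.

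Dbp RNA rose 4.46-fold from ZT3 to ZT9 (95% confidence interval 3.46 to 5.76, limma, adjusted p = 0.000238) on the first probe set and 3.71-fold (3.08 to 4.47, adjusted p = 5.25e-05) on the second. Higher levels at ZT9 than at ZT3 were called for 0.0415% of all tested probe sets, and differences in either direction for 0.0457%, at the threshold of 0.05 used for each of the 6 differences between times. The level was still 3.93-fold and 3.04-fold that of ZT3 at ZT15 (limma adjusted p = 0.000627 and 0.000275), a difference called upward for 0.27% of probe sets. From ZT21 to ZT3 it fell, with log2 differences of -1.74 and -1.39 (limma adjusted p = 0.00250 and 0.00134), a difference called downward for 0.0166% and in either direction for 0.0208% of probe sets. Most of the daily course of Dbp was a drop across the dark-to-light change and a return within the light phase.

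After ZT9 the decline of Dbp was slow. Between ZT9 and ZT15 the fitted differences were -0.18 and -0.29 on the log2 scale, and between ZT15 and ZT21 they were -0.24 and -0.22. From ZT9 to ZT21 they came to -0.42 (95% confidence interval -0.79 to -0.05, limma adjusted p = 0.326) and -0.50 (-0.77 to -0.24, adjusted p = 0.239). None of these 3 differences was called for any of the 8 probe sets of the D-box factors, at backgrounds of 0.17%, 0.0125% and 0.00415%. At an unadjusted p under 0.05 the limma fit gave 2, 1 and 4 of the 8, where 7.28%, 9.77% and 13.3% of all tested probe sets lay, and without moderation of the variance no member was called either.

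Both Dbp probe sets gave nearly the same course over the 12 arrays (Pearson r = 0.99, Spearman rho = 0.94, as a description of values from the same RNA). Their ranges of 2.16 and 1.89 log2 (SE 0.17 and 0.12) exceeded those of 99.95% and 99.93% of all tested probe sets. Across the other processing settings, each array left out in turn included, ZT9 minus ZT3 stayed between 2.02 and 2.27 and between 1.80 and 2.01, and both probe sets passed the F-test in each. Without the 2 arrays of highest choroid plexus markers ZT9 minus ZT3 of the brighter probe set was 2.27 (limma adjusted p = 0.00183).

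Tef, the thyrotroph embryonic factor and a D-box activator like Dbp, had its highest mean at ZT9 on all 3 probe sets, but in a much smaller range. On the dimmest of them ZT21 minus ZT9 was only -0.01, and the highest mean moved to ZT15 or ZT21 in 7 of the 22 other settings. On the brightest, 1424175_at, the log2 intensities were 10.71, 10.70 and 10.88 at ZT3, 11.04, 11.22 and 11.18 at ZT9, 11.06, 10.93 and 11.17 at ZT15, and 10.69, 10.57 and 10.94 at ZT21. The mice of ZT9 lay above all mice of ZT3 and ZT21 and overlapped with those of ZT15, and ZT3 overlapped with ZT21. The range, from ZT21 to ZT9, was 0.41 log2 (SE 0.11, limma adjusted p = 0.226), which is larger than in 75.6% of tested probe sets and does not pass the threshold. The difference between ZT9 and ZT3 was 0.38 (95% confidence interval 0.13 to 0.63, limma adjusted p = 0.358).

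The other Tef probe sets did not show a single common course. The probe set 1450184_s_at read 8.22, 8.30 and 8.52 at ZT3, 8.28, 8.97 and 8.98 at ZT9, 8.47, 8.75 and 8.37 at ZT15, and 8.20, 7.99 and 8.33 at ZT21. Its 2 highest mice were both of ZT9, but the remaining ZT9 mouse, replicate 1, lay among those of ZT3 and ZT21 (range 0.57, SE 0.18, limma adjusted p = 0.318). The dimmest, 1438033_at, read 6.10, 6.12 and 5.96 at ZT3, 6.69, 6.38 and 6.45 at ZT9, 6.34, 6.42 and 6.66 at ZT15, and 6.42, 6.44 and 6.63 at ZT21. On it ZT3 lay below all other mice, as for Dbp, and ZT21 lay with ZT9 and ZT15 and not with ZT3 (range 0.45, SE 0.12, limma adjusted p = 0.222). Over the 12 arrays the 3 pairs of Tef probe sets had r = 0.75, 0.42 and -0.02, whereas the dimmest had r = 0.92 with the brighter Dbp probe set. Whether these probe sets read different Tef transcripts was not tested.

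The call for Tef depended on single arrays. The F-test of 1424175_at passed 0.20 without ZT9 replicate 1 (range 0.47, limma adjusted p = 0.145), without ZT15 replicate 3 (0.41, 0.199) and without ZT21 replicate 3 (0.51, 0.118), settings in which 13%, 5.99% and 12% of all tested probe sets passed. These 3 arrays and that of ZT9 replicate 2 had the highest mean intensities, 392 to 398 against 344 to 374 on the other 8, whose part in the calls was not tested. The dimmest, 1438033_at, passed in those fits too (limma adjusted p = 0.142, 0.166 and 0.153). It also passed without ZT9 replicate 3 (limma adjusted p = 0.194), under quantile normalization (0.148) and with a minimum mean of 6 (0.1999). In these last settings 7.41%, 9.3% and 3.71% of the probe sets tested passed. The probe set 1450184_s_at passed without ZT9 replicate 1 (range 0.80, limma adjusted p = 0.0989). With array weights all 3 Tef probe sets passed, as did 60.6% of all tested probe sets.

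Hlf, the hepatic leukemia factor and the remaining activator, did not differ between times beyond the spread of the mice. On 1434736_at the log2 intensities were 11.59, 11.64 and 11.44 at ZT3, 11.42, 12.08 and 11.58 at ZT9, 11.93, 11.66 and 11.96 at ZT15, and 11.39, 11.53 and 11.83 at ZT21. The highest value, 12.08, and one of the lowest, 11.42, were both from ZT9. All of ZT15 lay just above all of ZT3 (11.66 against 11.64 at the nearest), and every other pair of times overlapped. Its range, from ZT3 to ZT15, was 0.29 log2 (SE 0.17, 95% confidence interval -0.08 to 0.66, limma adjusted p = 0.587), about the median of all tested probe sets. The second probe set, 1434735_at, ranged over 0.12 log2 (SE 0.11, limma adjusted p = 0.881), more than in 11.2% of probe sets, with single mice between 9.53 and 9.93. The difference between ZT9 and ZT3, where Dbp rose most, was 0.13 for Hlf (95% confidence interval -0.24 to 0.50, limma adjusted p = 0.756). The upper end of that interval is a 1.41-fold change.

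Nfil3, the repressor of the D-box, had its lowest mean at ZT9, where Dbp and Tef had their highest. The log2 intensities of its only probe set, 1418932_at, were 6.72, 6.55 and 6.67 at ZT3, 6.39, 6.44 and 6.02 at ZT9, 6.43, 6.54 and 7.24 at ZT15, and 6.55, 6.68 and 6.66 at ZT21. All 3 mice of ZT9 lay below all of ZT3 and ZT21, but ZT15 spread from 6.43 to 7.24 and overlapped with ZT9. The range, from ZT9 to ZT15, was 0.45 log2 (SE 0.19, limma adjusted p = 0.408). A lowest mean at ZT9 was found in 15.4% and a highest mean at ZT9 in 29.3% of all tested probe sets. The difference between ZT9 and ZT3 was -0.37 (95% confidence interval -0.77 to 0.04, limma adjusted p = 0.456), and ZT9 replicate 3, the mouse of lowest Nfil3, was also the array of highest choroid plexus markers, whose part in this value was not tested. Under the other settings ZT15 minus ZT9 of Nfil3 lay between 0.20 (without ZT15 replicate 3, where ZT3 had the highest mean) and 0.61, and Nfil3 did not pass the F-test in any.

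A cosine of 24 h was fitted to place each gene in the day. It passed (limma, adjusted p under 0.20) for 3 of the 8 probe sets, against 2.22% of all tested. For Dbp the amplitude was 1.01 ± 0.08 log2 (SE) with a fitted peak at ZT14.2 ± 0.32 h (limma adjusted p = 0.00157) on the brighter probe set, and 0.84 ± 0.06 with a peak at ZT13.8 ± 0.28 h (adjusted p = 0.000465) on the other. These peaks lay later than ZT9, the time of the highest mean, as the level at ZT21 was nearer to that of ZT9 than to that of ZT3. For Tef the brightest probe set passed with an amplitude of 0.25 ± 0.06 and a peak at ZT11.3 ± 0.87 h (limma adjusted p = 0.184), and the other probe sets, which did not pass, had fitted peaks at ZT10.2 ± 1.17 h and ZT14.9 ± 1.08 h. The Tef call was lost in 10 of the 12 fits that left out 1 array, and without the 2 arrays of highest choroid plexus markers (limma adjusted p = 0.263), and the 2 fits that kept it, without ZT9 replicate 1 and without ZT21 replicate 3, called 16.2% and 16.8% of all tested probe sets.

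**Figure D2:**
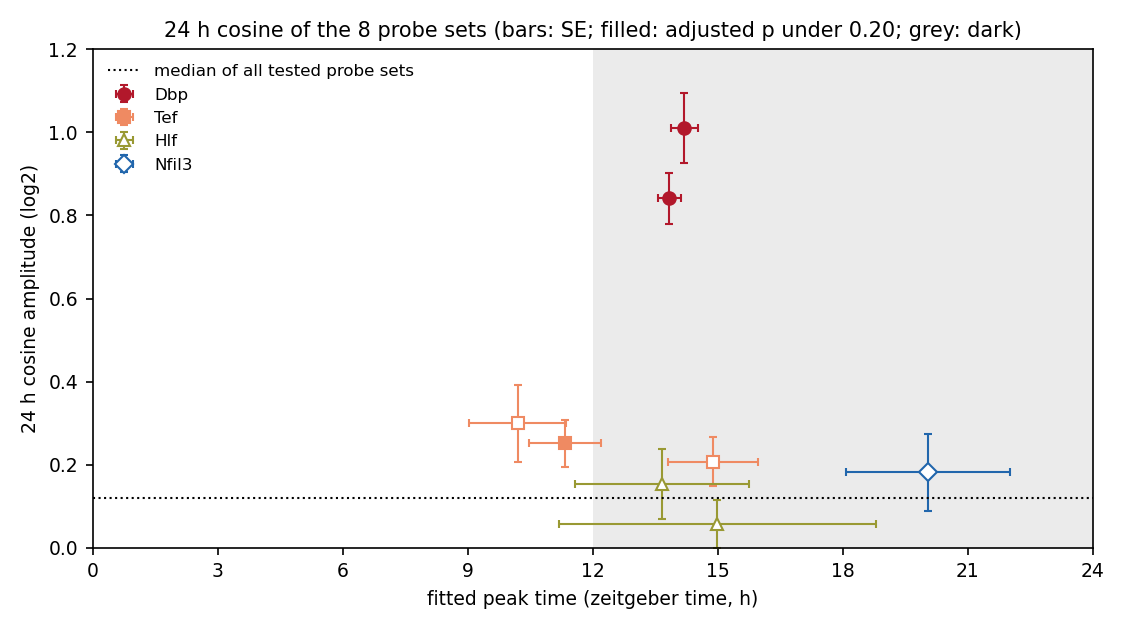
Fitted peak time (x axis, hours after lights on) and amplitude (y axis, log2) of the 24 h cosine for the 8 probe sets, with standard errors as bars; filled points passed the test, the dotted line is the median amplitude of all tested probe sets, 0.12, and the dark phase is shaded. Both Dbp points sit near ZT14 with amplitudes of 1.01 and 0.84, the Tef points between ZT10.2 and ZT14.9 at 0.21 to 0.30, and Nfil3 at ZT20.1 with an amplitude of 0.18.

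The remaining fits were below the threshold and their peak times are loose. Hlf had amplitudes of 0.15 ± 0.08 and 0.06 ± 0.06 with fitted peaks at ZT13.7 ± 2.09 h and ZT15.0 ± 3.80 h (limma adjusted p = 0.516 and 0.780), and Nfil3 had 0.18 ± 0.09 with a peak at ZT20.1 ± 1.96 h (limma adjusted p = 0.486). The median amplitude of all tested probe sets was 0.12 log2. With 4 times a peak between them is a product of the curve, and the standard errors cover only the spread between mice.

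Whether the time courses differed from each other was tested on the log2 difference of each pair of genes within each array. Each gene was read by its brightest probe set, and the scaling of an array cancels in the difference. Of the 6 pairs, 4 changed over the 4 times by an exact permutation F-test over all 369600 assignments of the arrays, with p-values adjusted over the 6 pairs (the smallest possible p was 6.49e-05). The largest change was that of activator over repressor: Dbp minus Nfil3 rose from 2.71 ± 0.14 (SD, n = 3) at ZT3 to 5.23 ± 0.20 at ZT9 and stood at 4.60 ± 0.16 at ZT15 and 4.46 ± 0.12 at ZT21, a range of 2.52 (exact permutation p = 0.000260, adjusted p = 0.00156). Dbp minus Tef ranged over 1.77 (exact permutation p = 0.0163, adjusted p = 0.0320) and Dbp minus Hlf over 2.03 (exact permutation p = 0.00896, adjusted p = 0.0269), each lowest at ZT3. So on the brightest probe sets the course of Dbp differed from that of each of the other D-box factors, and its own range was the largest. The other probe sets were not tested in pairs. Of these, the dimmest Tef probe set had r = 0.92 with the brighter Dbp probe set.

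**Figure D3:**
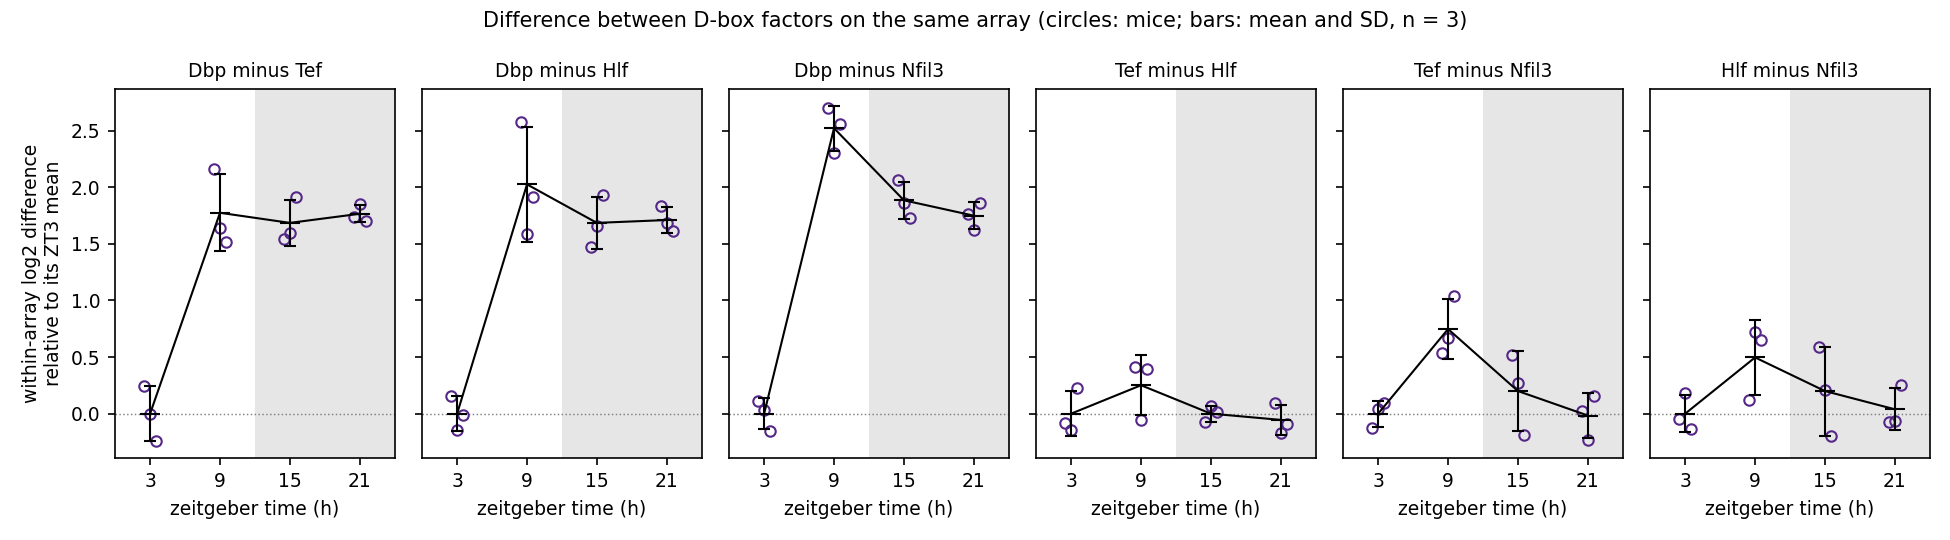
Log2 intensity of the first gene minus that of the second on the same array, plotted relative to the mean of ZT3 (y axis), for the 6 pairs of D-box factors over time (x axis, ZT in hours; dark phase shaded), with 1 circle per mouse and a line through the means of 3 mice with SD bars. Each gene is read by its brightest probe set. Dbp minus Nfil3 stands 2.52 higher at ZT9 than at ZT3, and the means of Tef minus Hlf stay within a range of 0.31.

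On the brightest probe sets, Tef also moved relative to Nfil3. Tef minus Nfil3 was 4.12 ± 0.11 at ZT3, 4.87 ± 0.26 at ZT9, 4.32 ± 0.36 at ZT15 and 4.10 ± 0.20 at ZT21 (SD, n = 3 each), a range of 0.76 (exact permutation p = 0.0214, adjusted p = 0.0320). This call was lost without either ZT9 replicate 3 (adjusted p = 0.122) or any of 7 other single arrays, and under quantile normalization (0.0724) and without the 2 arrays of highest choroid plexus markers (0.0962). Tef and Hlf did not differ in course by this test (range 0.31, exact permutation p = 0.237, adjusted p = 0.237), nor did Hlf and Nfil3 (range 0.50, exact permutation p = 0.223, adjusted p = 0.237). A difference on this scale compares changes; the levels of different probe sets cannot be compared.

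The genes around the D-box factors were read from 4 lists, each gene by its brightest probe set. Among all 11639 genes tested this way, 2.14% passed the F-test at 0.20 and the median range was 0.26 log2. Of 11 genes that act at E-boxes, the input of Dbp, 10 were tested and 5 passed, with a median range of 0.78. They were Per2, Per1 and Cry1, which repress CLOCK and BMAL1, and Bhlhe40 and Ciart, which also repress at E-boxes. Per2 ranged over 3.07 log2, Per1 over 1.89, Bhlhe40 over 1.49 and Cry1 over 0.83 (limma adjusted p = 0.000376, 0.0453, 0.0139 and 0.112). Of the 2 tested probe sets of Per2, only 1 passed. Ciart had the course closest to Dbp: its log2 mean was 5.79 ± 0.04 (SD, n = 3) at ZT3, 7.95 ± 0.22 at ZT9, 7.57 ± 0.37 at ZT15 and 7.08 ± 0.29 at ZT21 (limma adjusted p = 0.00186). Arntl, which encodes BMAL1, had its highest mean at ZT3 and its lowest at ZT9, the reverse of Dbp, and did not pass (range 0.63, limma adjusted p = 0.215). Bhlhe41, with a mean log2 intensity of 3.14, was below the filter.

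Of 5 genes that act at ROR elements, the input of Nfil3, 4 were tested and 1 passed. This was Nr1d2, which encodes REV-ERB beta, a repressor at these elements, with a range of 0.62 from ZT3 to ZT15 (limma adjusted p = 0.183), beside a median range of 0.57 for the list. Of the 2 tested probe sets of Nr1d2, only 1 passed. Nr1d1, encoding REV-ERB alpha, ranged over 1.00 and Rorb over 0.53 without passing (limma adjusted p = 0.309 and 0.371), and Rora, an activator there, over 0.10 (0.927). The count was 0 when any of the 3 arrays of ZT3 was left out, when ZT9 replicate 2 was, when replicate 1 or 2 of ZT15 or of ZT21 was, and without the 2 arrays of highest choroid plexus markers (limma adjusted p of Nr1d2 0.227 in the last), and it was 2 without ZT9 replicate 1, without ZT15 replicate 3 and without ZT21 replicate 3.

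Of 15 genes with described control through D-boxes, 12 were tested and 5 passed: Per1, Per2, Cry1, Nr1d2 and Ciart. The median range was 0.68, and 10 of the 12 had their lowest mean at ZT3, the trough of Dbp, which held for 39.4% of all tested probe sets. All 5 also belong to the E-box or ROR element lists, so they do not bear on the D-box alone. Per3 had a range of 0.73 (limma adjusted p = 0.203). Of the genes known mainly as output of the PAR bZIP proteins, Pdxk, the pyridoxal kinase, read 10.27 ± 0.02 at ZT3, 10.39 ± 0.19 at ZT9, 10.50 ± 0.27 at ZT15 and 10.44 ± 0.15 at ZT21 (SD, n = 3 each), a range of 0.22 (limma adjusted p = 0.677). Alas1, the entry enzyme of haem synthesis, and Cyp7a1, the bile acid synthesis enzyme of liver, had ranges of 0.26 and 0.13 (limma adjusted p = 0.535 and 0.662). Cyp7a1 had a mean log2 intensity of 5.02, barely over the filter of 5, so its small range says little. Only 1 of its 2 probe sets was tested. The count fell to 2 without ZT3 replicate 2, where 0.166% of all tested probe sets passed. It fell to 3 without ZT3 replicate 3, ZT15 replicate 2, ZT21 replicate 1 or ZT21 replicate 2, where 0.253% to 0.461% passed. The count of the E-box list fell to 3 without ZT3 replicate 2. It came to 8 without ZT9 replicate 1 or ZT21 replicate 3, where 13% and 12% of all tested probe sets passed.

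**Figure D4:**
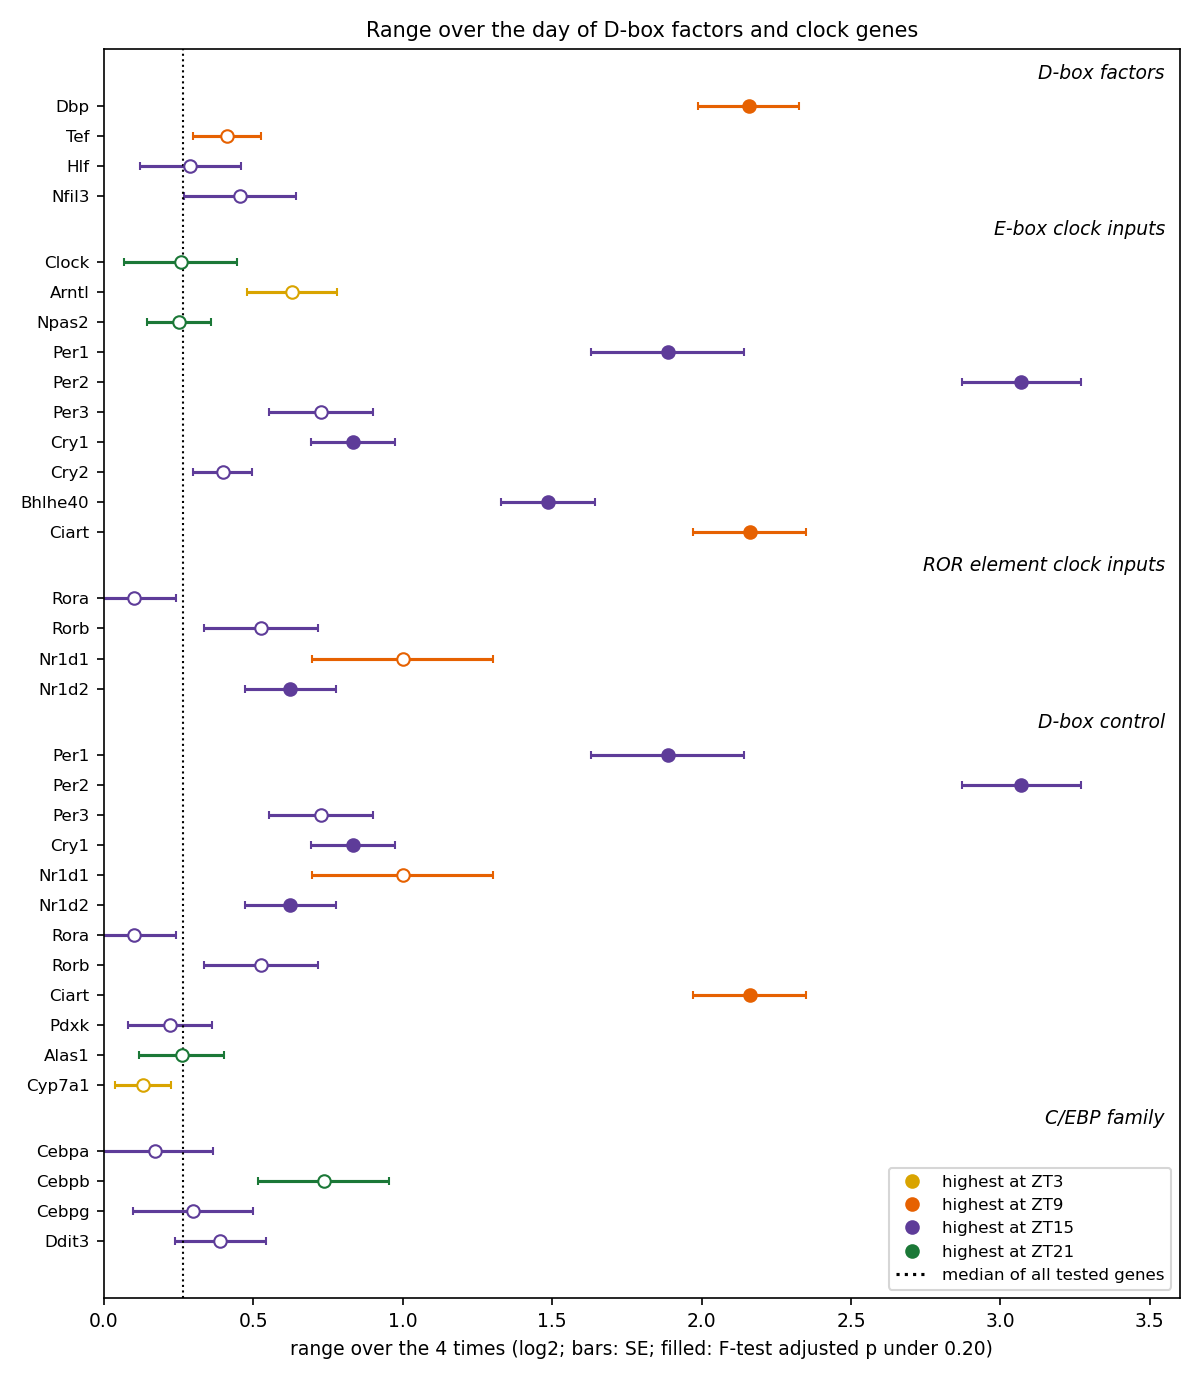
Range over the 4 times (x axis, log2) of the D-box factors and the tested genes of the 4 lists, each gene by its brightest probe set; bars are standard errors, colours give the time of the highest mean, filled points passed the F-test and the dotted line marks the median of all tested genes, 0.26. Dbp at 2.16 lies with Per2, Ciart, Per1 and Bhlhe40, and Tef, Hlf and Nfil3 lie between 0.29 and 0.45 among genes that did not pass.

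The C/EBP proteins, related basic leucine zipper factors whose sites resemble the D-box, served as a comparison. Of 7 genes 5 had a probe set annotated to them alone and 4 were tested, and none passed the limma F-test. An unadjusted limma F-test p under 0.05 was found for 1 of the 4, and for 15.6% of all tested genes. On the other lists it was found for 8 of 10 (E-box), 2 of 4 (ROR element) and 7 of 12 (D-box control) tested genes. The median range of the C/EBP genes was 0.34. Cebpb had the largest, 0.74 (limma adjusted p = 0.290), followed by Ddit3 with 0.39, Cebpg with 0.30 and Cebpa with 0.17 (limma adjusted p = 0.388, 0.665 and 0.888). Without ZT9 replicate 1 the count was 1, in a fit where 13% of all tested probe sets passed.

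The genes whose pattern over the 12 arrays was most like each D-box factor were ranked among the other 11638 tested genes by Pearson r, as a description of values that share arrays and scaling. For Dbp they were Ciart (r = 0.95, Spearman rho = 0.86), Abcb6, a mitochondrial porphyrin transporter (0.94, 0.76), Irf2bpl (0.93, 0.78), Spns2, a sphingosine-1-phosphate transporter (0.93, 0.95), and Cdc42se1 (0.93, 0.90). All 5 had their lowest mean at ZT3, and Ciart, Abcb6 and Irf2bpl passed the F-test while Spns2 and Cdc42se1 did not. For Tef they were Pfkl, a phosphofructokinase of glycolysis (0.92, 0.92), the kinase Mark3 (0.92, 0.87) and the phosphatase Ppm1g (0.92, 0.91), all highest at ZT9 and lowest at ZT21 as Tef was. For Hlf they were Carhsp1 (0.91, 0.94), Acsl5 (0.91, 0.81) and Ttc14 (0.90, 0.82), and for Nfil3 Tmem178 (0.89, 0.67), Sipa1l3 (0.88, 0.51) and the co-chaperone Stip1 (0.88, 0.77). None of these 9 genes passed the F-test. Because all these genes were picked by likeness over the same arrays, their highest and lowest times and F-test results follow partly from that choice. Of the Nfil3 values, only that of ZT15 replicate 3 was above 7.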

How the data were processed

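Expression was measured in prefrontal cortex RNA of 12 mice, 1 array each, and grouped by the time in the sample titles. The authors cut the cortex in front of the optic chiasm after removing the olfactory bulb, so neighbouring tissue can remain in a sample. The deposited values are linear intensities per probe set, made by the authors from the probe signals by GCRMA, which corrects background by probe sequence. Array mean intensities still differed, from 344 to 398. Their MAS5 detection calls were not used here. Precision is set by 3 mice per time, and arrays carry no read depth. Intensities of 45037 probe sets (64 control probe sets left out) were floored at 1, which no value was below, and put on the log2 scale. Array pairs correlated at r = 0.991 to 0.998. Gene symbols came from GEO's platform annotation (932 probe sets had several symbols, 9160 none).

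Time point means were fitted with limma 3.58.1 in R 4.3.3 over the 24075 probe sets with a mean log2 intensity of at least 5, in place of the SAM test of the authors, with no covariate, and p-values were adjusted over all of them by Benjamini-Hochberg. The F-test and the 24 h cosine used a threshold of 0.20, after the authors' false discovery rate, and the 6 differences between times 0.05. Pairs of genes, each gene by its brightest probe set, were tested by exact permutation in Python 3.11.15. The scripts were tested on simulated data. All probe sets of the 4 genes are named; of each list, the genes past the F-test and up to 4 with the smallest p; of genes of like pattern, 5 for Dbp and 3 for each other factor. Arntl, Bhlhe41, Per3, Pdxk, Alas1 and Cyp7a1 were named outside this rule, after their values were seen. The genes and lists were chosen with earlier results of these data known. Alternatives were quantile normalization, median centring, no filter, a minimum of 6, an offset of 16, array weights, no moderation, a robust prior with an intensity trend, the replicate number as a block and each array left out. Scan dates are not given in the sources used here, so batches were not examined.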

Additional observations from a re-analysis of the deposited data

How the results depend on the processing

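In each alternative the size of a change is given between the times that were highest and lowest in the reported fit, so it can be below the range or negative. Array weights, which raised the share of all probe sets past the F-test to 60.6% and past the cosine to 51.2%, moved most counts: 6 of the 8 probe sets of the D-box factors passed the F-test and 6 the cosine, 4 differed from ZT3 to ZT9, 1 from ZT15 to ZT21 and 4 from ZT9 to ZT21, and the lists gave 8 (E-box), 3 (ROR element), 9 (D-box control) and 2 (C/EBP). The shares of all probe sets called for the differences between times were not taken with array weights, so those counts have no background. With array weights ZT9 minus ZT21 of Tef was 0.50 (limma F-test adjusted p = 0.00916). ZT15 minus ZT3 of Hlf was 0.22 (limma F-test adjusted p = 0.0906, with ZT9 highest in that fit). Both were past the threshold. Without moderation of the variance the counts were 1 for ZT21 to ZT3 (the brighter Dbp probe set had a limma-fit adjusted p of 0.0542), 3 for the E-box, 0 for the ROR element and 2 for the D-box control list. The ROR element count was also 0 with median centring, with no filter and without the 2 arrays of highest choroid plexus markers. Without moderation 0.328% of all probe sets passed the F-test, and with median centring 1.04%. With no filter the share was 0.431%, and without those 2 arrays 1.9%. The adjusted p of Tef minus Nfil3 was 0.0724 under quantile normalization and 0.0962 without those 2 arrays. Leaving out 1 array in turn gave counts of 2 to 5 for the F-test (5 without ZT9 replicate 1, 4 without ZT15 replicate 3 or ZT21 replicate 3), 2 to 5 for the cosine, 3 to 8 for the E-box, 0 to 2 for the ROR element (2 without ZT9 replicate 1, ZT15 replicate 3 or ZT21 replicate 3), 2 to 7 for the D-box control and 0 to 1 for the C/EBP list, a ZT9 minus ZT21 of Tef of 0.33 to 0.51 and an adjusted p of Tef minus Nfil3 of 0.00935 to 0.122. The share of all probe sets past the F-test moved from 0.166% to 13% in these fits. Direction was reversed in 3 values, all of genes that did not pass: ZT15 minus ZT3 of the second Hlf probe set under quantile normalization (-0.00026), Hlf from ZT3 to ZT9 without ZT9 replicate 2 (-0.061, with 0.27 as the highest value when 1 array was left out) and ZT15 minus ZT21 of Rora without ZT21 replicate 2 (-0.016, with 0.21 as the highest). The causes of these changes were not tested. Both Dbp probe sets passed the F-test in all 22 alternatives, with limma adjusted p from 2.79e-06 to 0.0246 and from 2.79e-06 to 0.00972. The Dbp differences of ZT9 and of ZT15 from ZT3 were called in all 22 as well, and the 3 pairs with Dbp in all 15 settings in which the pairs were recomputed (exact permutation, largest adjusted p 0.0361). The cosine call of Tef was lost with median centring, no filter, no moderation and the replicate block.

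Replicate numbers 1, 2 and 3 recur at each time in the titles, and nothing in the sources used here says that a number marks a shared litter, cage or day. Of 18 pairs of arrays with the same number 6 had deviations from the time means that correlated above 0.1 (r from -0.50 to 0.49), and 3 of 12 arrays correlated best with their own number. With the replicate number as a block, 0.382% of all probe sets passed the F-test; the F count of the D-box factors was again 2 and the cosine count 2, the ROR element list gave 0 and the D-box control list 3.

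With 3 mice per time, the absence of a call for Hlf and Nfil3 in the reported fit does not exclude changes within their confidence intervals.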
